A study of Homo sapiens with 3 samples.

Results

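The transcripts described here are those of 37 mitotic genes, covering kinases, cyclins, the spindle checkpoint, the kinetochore and cytokinesis. They were taken by symbol from a gene table of 23284 genes, and all 37 were found, had a quantification status of OK in every library and passed a filter of a mean FPKM of at least 1 that left 11870 genes. FPKM is the number of sequenced fragments scaled to transcript length and library size. HEK293T is a human embryonic kidney cell line that carries the SV40 large T antigen and divides quickly. It was grown in medium with 10% fetal bovine serum, given an siRNA by lipid transfection and harvested 48 h after seeding, with no TGF-beta in any group. The 3 groups were a negative control siRNA, an siRNA against ESRP2, an epithelial splicing regulator, and an siRNA against Arkadia, a ubiquitin ligase encoded by RNF111. Each group is 1 library of polyadenylated RNA, and how many siRNAs made up each treatment is not given in the sources used here.

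With 1 library per group there is no spread between replicates, so no test was made and no p-value is given. Each difference is between libraries, fewer cells in a phase and less RNA per cell cannot be told apart, and the authors' confidence interval of each FPKM is printed in parentheses after it. Each siRNA target was lower in its own library: RNF111 read 6.38 (3.15 to 9.59), 7.65 (3.79 to 11.5) and 1.15 (0.500 to 1.82) in the order control, ESRP2 and Arkadia siRNA, and ESRP2 read 14.8 (3.34 to 26.3), 4.27 (0.0878 to 9.33) and 21.2 (6.21 to 36.5). The steps between the bounds of low genes implied about 12.1, 12.4 and 9.08 M reads. On that scale each mitotic gene rested on about 217 to 7508 reads per library. The authors' intervals were wide, with a median width of 1.02 times the FPKM among the 37 genes with control siRNA. Of 19 markers of other cell types, 1 (LRP2) had an FPKM of at least 1 in any library, and their summed FPKM was 5.34 to 7.37. HBB, a red cell marker, was at 0 throughout. Of 5 markers of the cell line, VIM, NEFL and NEFM were above 1 in all 3 libraries, PAX2 was at 2.13, 0.835 and 2.13, and LHX1 at 0.718, 0.946 and 1.14.

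Mitosis begins when CDK1, bound to cyclin B and freed of inhibitory phosphate by CDC25 phosphatases, phosphorylates a wide range of proteins. Polo-like and Aurora kinases then build the spindle, the checkpoint proteins hold anaphase back until every kinetochore is attached, and CDC20 turns on the ubiquitin ligase APC/C, which destroys securin and cyclin B. Most of these genes are transcribed late in the cell cycle. The DREAM complex represses them in resting cells and the MYB-MuvB complex with FOXM1 activates them in G2, both through a promoter element called the CHR, the cell cycle genes homology region, often with CCAAT boxes bound by NF-Y a short way upstream. Large T antigen binds the RB family, to which part of DREAM belongs.

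Start-site windows from RefSeq (GRCh38.p14) were matched by symbol for 32 of the 37 genes, some with several windows, and the 250 bases before each start were searched on both strands. The CHR, spelled TTTGAA or TTCGAA, was found in 20 of the 32 genes, that is in 22 of their 42 windows (52.4%), against 14.3% of all 35116 windows. CCAAT was found in 27 of 32 genes, or 76.2% of windows against 32.0% of all. An E2F site, spelled TTTCCCGC or TTTGGCGC, was found in CENPA and NUSAP1 alone of the 32 genes, in 4.76% of windows against 1.93% of all. The matches are descriptions of letters, not of binding. AURKA, TPX2, BUB3, TTK and BIRC5 had no entry.

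The 10 stretches that follow are the last 60 bases before the start, 5′ to 3′, with the CHR letters in capitals (TTCAAA is TTTGAA read on the other strand). They were chosen because they place the same element before genes with opposite differences between the libraries: CKS2, HMMR, ANLN and BUB1B were lower with Arkadia than with ESRP2 siRNA, PLK1, ESPL1 and INCENP were higher, and CCNB2, CKS1B and MKI67 were within 1.5-fold. The lower genes have transcript GC contents of 36.7% to 43.2%, and the higher ones of 57.04% to 59.6%. After the medians of all genes of like GC content were subtracted, CKS2 (-1.16) alone of these stayed past 1.5-fold. HMMR was then at -0.40, BUB1B at -0.13, ANLN at 0.24, PLK1 at 0.50, ESPL1 at 0.53 and INCENP at 0.41.
CKS2, chr9:89311135-89311194, plus strand: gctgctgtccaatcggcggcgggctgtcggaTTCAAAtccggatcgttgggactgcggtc
CCNB2, chr15:59105086-59105145, plus strand: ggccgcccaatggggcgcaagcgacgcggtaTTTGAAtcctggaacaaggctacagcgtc
HMMR, chr5:163460572-163460631, plus strand: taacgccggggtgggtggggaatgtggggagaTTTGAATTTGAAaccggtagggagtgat
ANLN, chr7:36389802-36389861, plus strand: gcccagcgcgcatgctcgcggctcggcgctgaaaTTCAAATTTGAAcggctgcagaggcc
BUB1B, chr15:40161009-40161068, plus strand: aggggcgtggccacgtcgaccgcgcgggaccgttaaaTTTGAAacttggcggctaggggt
PLK1, chr16:23678829-23678888, plus strand: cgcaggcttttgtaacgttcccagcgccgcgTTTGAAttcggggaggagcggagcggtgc
ESPL1, chr12:53268239-53268298, plus strand: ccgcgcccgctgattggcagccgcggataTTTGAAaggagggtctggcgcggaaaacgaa
INCENP, chr11:62123951-62124010, plus strand: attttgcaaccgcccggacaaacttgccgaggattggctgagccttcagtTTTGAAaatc
CKS1B, chr1:154974621-154974680, plus strand: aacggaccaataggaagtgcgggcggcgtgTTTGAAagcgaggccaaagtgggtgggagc
MKI67, chr10:128126424-128126483, minus strand: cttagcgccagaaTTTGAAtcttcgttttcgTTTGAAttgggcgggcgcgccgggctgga
The element began 29 bases before the start in CKS2, CCNB2 and PLK1, 30 in CKS1B and 31 in ESPL1. In HMMR a pair of copies lay end to end at 28 and 22 bases, in ANLN at 26 and 20, and MKI67 held copies at 47 and 29. Within the last 50 bases, a window chosen after the positions were seen, the CHR stood in 16 of 32 genes (38.1% of windows) against 2.43% of all windows. CCNA2 and CCNB1 held neither CHR spelling before the start, nor did NUF2, NDC80, CENPE or MAD2L1. Promoters with and without the letters belonged to genes with median log2 ratios of 0.34 and 0.46 for ESRP2 against control siRNA, of -0.19 and -0.23 for Arkadia against control siRNA, and of -0.36 and -0.61 for Arkadia against ESRP2 siRNA. The median GC content of their transcripts was 46.5% and 42.0%.

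**Figure D1:**
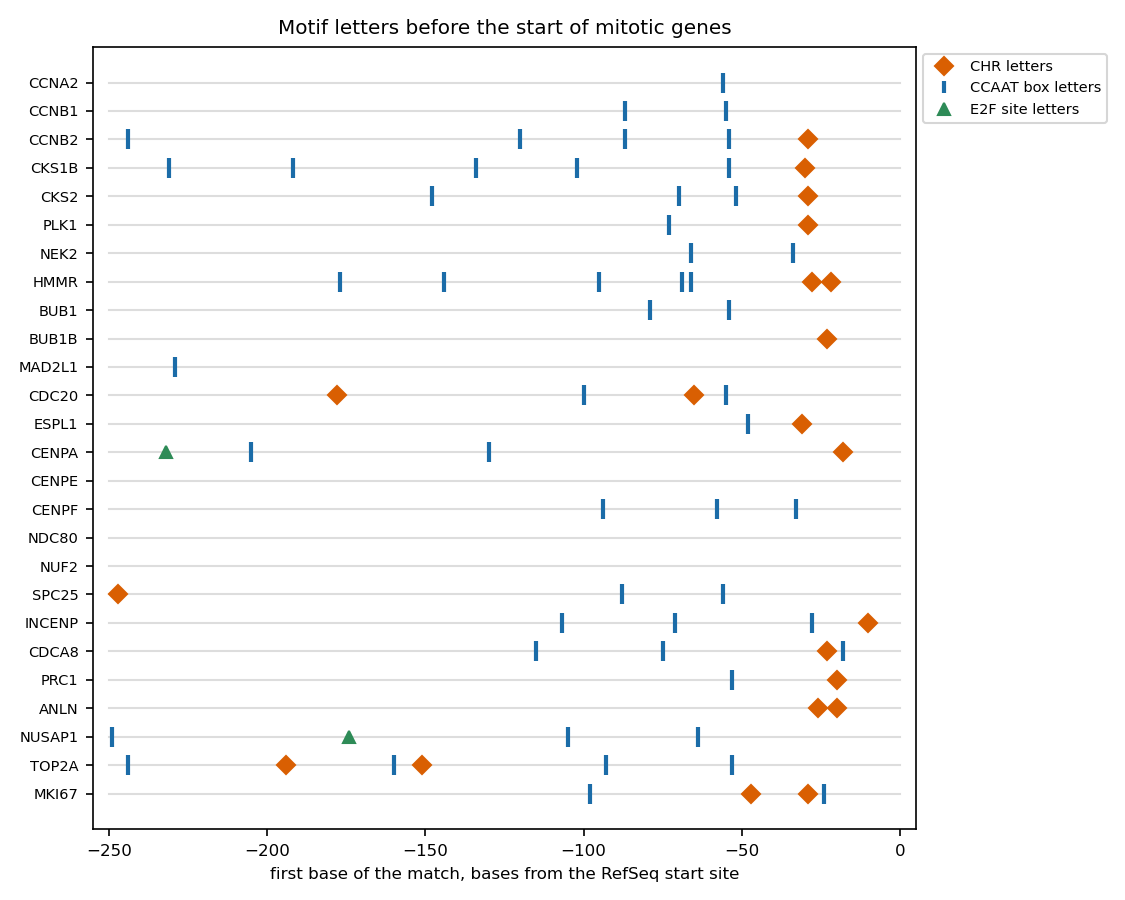
Position of CHR (diamonds), CCAAT (bars) and E2F (triangles) letters in the 250 bases before the RefSeq start, for the mitotic genes with a single window; the x axis gives the first base of each match in bases from the start. Most CHR matches lie between 10 and 50 bases before the start, as in CKS2, CCNB2 and PLK1 at 29, those of SPC25, CDC20 and TOP2A lie further upstream, and so do most CCAAT matches.

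In the control library the 37 genes spanned a 40.8-fold range per transcript length, from CENPE, the mitotic kinesin at the kinetochore, at an FPKM of 8.24 to CKS2, a small CDK-binding subunit, at 336. The median, 54.6, ranked at percentile 86.1 among the 11870 genes. After CKS2 the highest were BUB3, a WD40 protein of the checkpoint that cells also use outside mitosis, at 228, MAD2L1 at 179, AURKB at 169, CKS1B at 151 and PLK1 at 141. At the low end, above CENPE, were CDC25C at 15.4, NDC80 at 15.5, CENPA at 17.4 and CENPF at 17.9. All 36 pairs of neighbours in this order had overlapping intervals. The median was 73.4 with ESRP2 siRNA and 45.8 with Arkadia siRNA. CKS2 was highest with ESRP2 siRNA too, but BUB3 was highest with Arkadia siRNA, where CKS2 had dropped below it. Together the 37 genes made up 0.473% of summed FPKM with control siRNA, 0.567% with ESRP2 siRNA and 0.401% with Arkadia siRNA.

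**Figure D2:**
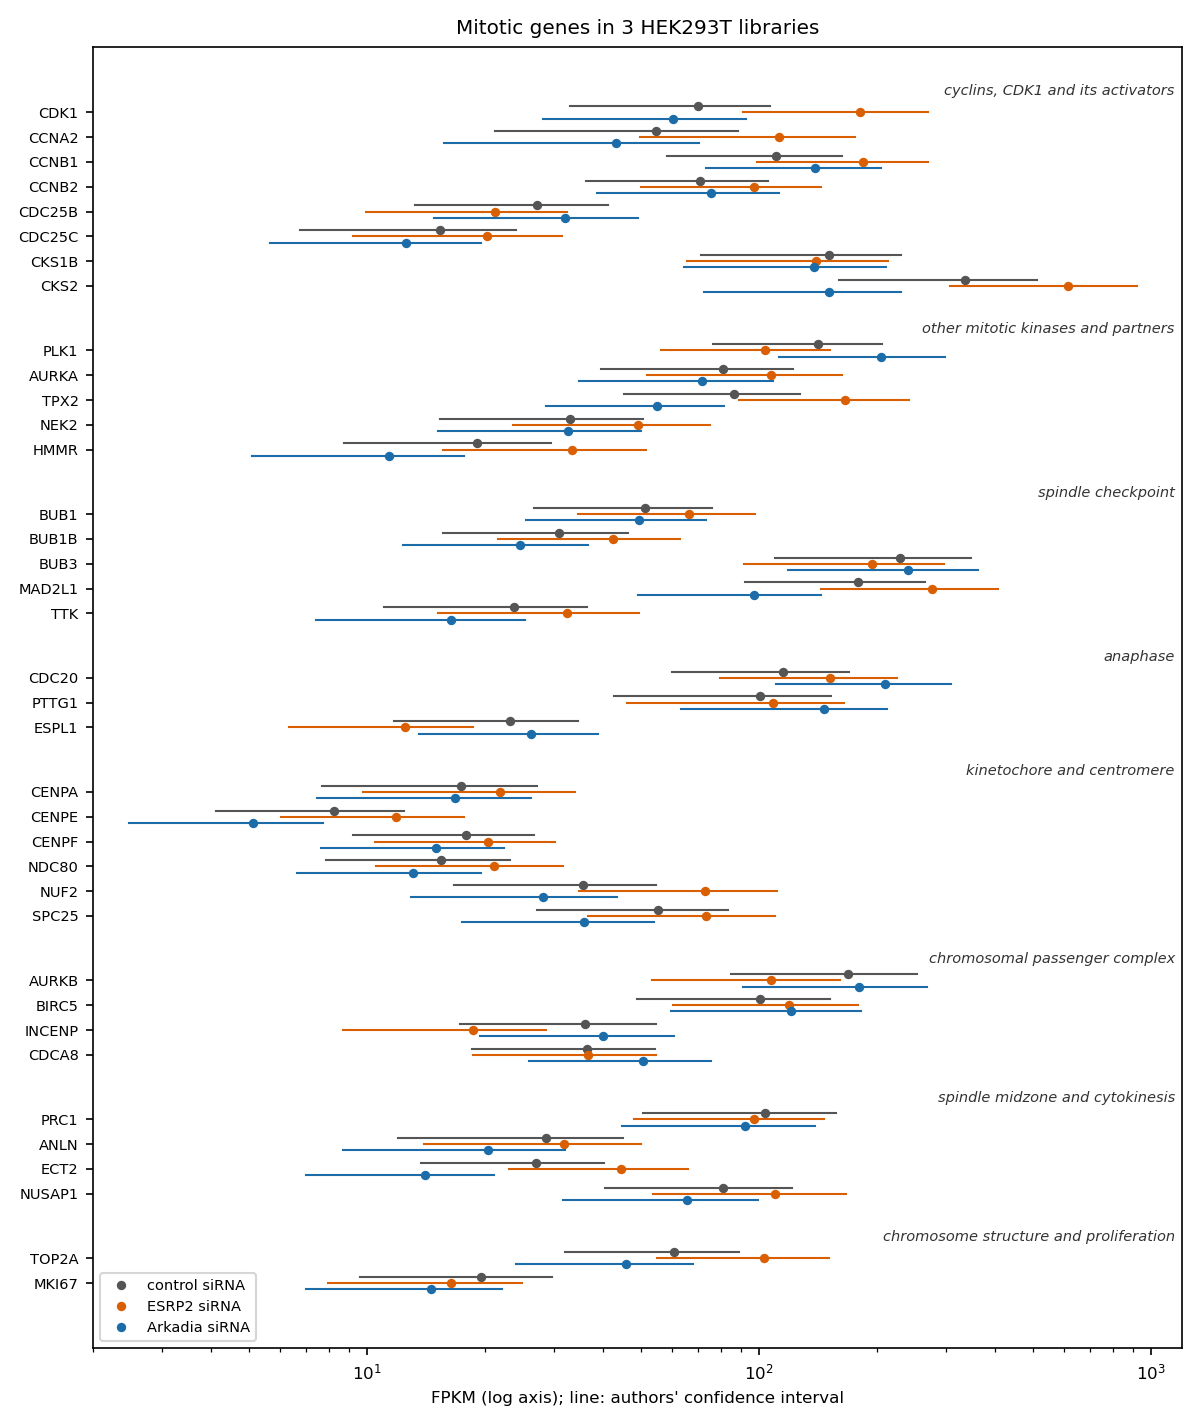
FPKM (log axis) of each mitotic gene in the control (grey), ESRP2 (orange) and Arkadia (blue) siRNA libraries, grouped by role; lines are the authors' confidence intervals, 1 library each. Most intervals overlap, and the blue and orange lines of CKS2, TPX2, MAD2L1 and ECT2 do not.

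More of these genes were higher than lower with ESRP2 siRNA. On the scale log2((FPKM + 1)/(FPKM + 1)), which understates changes of low genes, 10 of 37 were at least 1.5-fold higher than with control siRNA (27.0%, where 19.9% of all genes were) and 3 were lower (8.11%, against 11.4% of all). The median log2 ratio was 0.40, beside 0.12 over all genes. With Arkadia siRNA 1 gene was higher (2.70%, against 9.81% of all) and 7 were lower (18.9%, against 11.8%), with a median of -0.21 beside -0.017. In either direction these shares over all genes were 31.3% and 21.6%. Against control, 0 of 37 mitotic genes had an interval apart from that of a knockdown library. Over all genes 0.868% were higher and 0.413% lower with intervals apart with ESRP2 siRNA (1.28% either way), and 0.194% and 0.244% with Arkadia siRNA (0.438% either way). These comparisons share the control library.

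The direct comparison leaves the control library out. Between Arkadia and ESRP2 siRNA, 17 of 37 genes were at least 1.5-fold lower with Arkadia siRNA (45.9%, against 30.8% of all genes) and 4 were higher (10.8%, against 21.2%), with a median log2 ratio of -0.58 beside -0.14. CKS2, TPX2, MAD2L1 and ECT2 had intervals that did not overlap, all 4 lower with Arkadia siRNA, where 4.47% of all genes were lower and 1.90% higher in that way (6.36% together). At 1.5-fold 52.0% of all genes differed one way or the other. The 4 genes on the other side were PLK1, AURKB, INCENP and ESPL1.

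**Figure D3:**
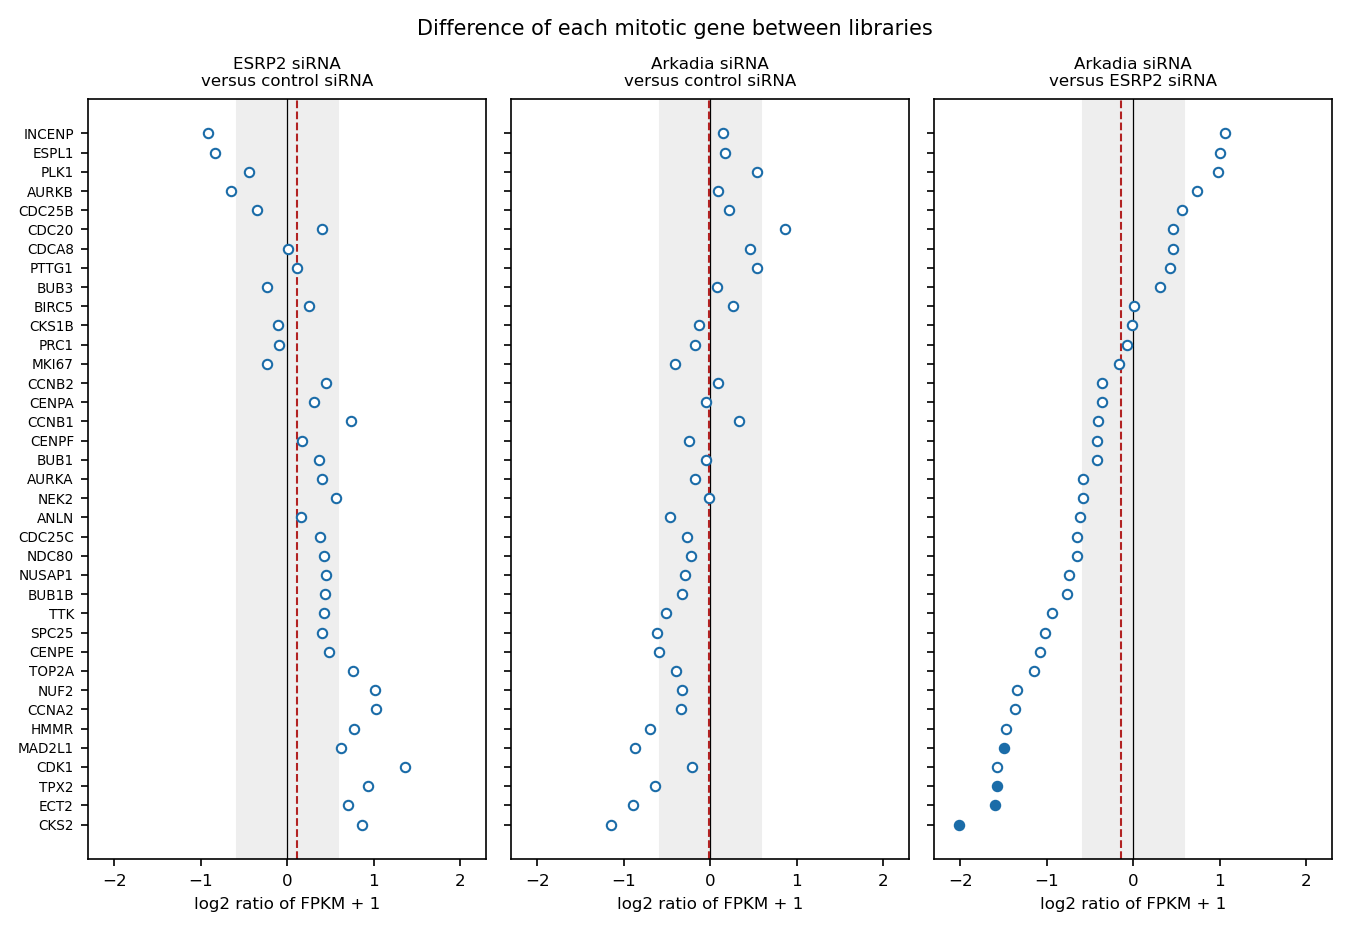
The log2 ratio of FPKM + 1 of each mitotic gene in the 3 comparisons, ordered by the direct one; the grey band is less than 1.5-fold, the dashed line is the median of all genes and filled points have intervals that do not overlap. The direct comparison runs from CKS2 at -2.02 to INCENP at 1.07, and only it holds filled points.

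Among the cyclins, CDK1 and its activators, CDK1 itself differed most with ESRP2 siRNA. The kinase that drives entry into mitosis (chromosome 10, 62538089 to 62554610 on hg19) read 69.7 (32.9 to 106) with control siRNA, 181 (90.8 to 270.2) with ESRP2 siRNA and 60.2 (28.02 to 92.6) with Arkadia siRNA. Its log2 ratio was 1.36 with ESRP2 siRNA and -0.21 with Arkadia siRNA, so the ESRP2 siRNA library stood above the other 2, with intervals that still touched. Cyclin A2, the CDK partner of S phase and early mitosis (CCNA2, chromosome 4, 122722472 to 122745088, a locus the table shares with EXOSC9), followed the same order at 54.6 (21.2 to 88.1) with control siRNA, 113 (49.6 to 176) with ESRP2 siRNA and 43.1 (15.7 to 70.4) with Arkadia siRNA. Cyclin B1, the main mitotic partner of CDK1 (CCNB1, chromosome 5, 68462837 to 68474070), was 110.3 (58.3 to 162) with control siRNA, 184 (98.6 to 269) with ESRP2 siRNA and 139 (73.2 to 204) with Arkadia siRNA. It was thus highest with ESRP2 siRNA and lowest in the control, with log2 ratios of 0.73 and 0.33. The related cyclin B2, CCNB2, stayed within 1.5-fold at 70.9, 97.1 and 75.5 in control, ESRP2 and Arkadia siRNA.

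CKS2, which docks CDKs onto phosphorylated substrates (chromosome 9, 91926113 to 91931618), had the widest swing of the 37 genes. Its FPKM was 336 (160.3 to 513) with control siRNA, 615 (308 to 923) with ESRP2 siRNA and 151 (72.2 to 229.7) with Arkadia siRNA. The control value lay between the others, and the log2 ratios were 0.87 and -1.15 against control and -2.02 between the knockdown libraries. Its close paralog CKS1B stayed at 151, 139.8 and 138, and reads of CKS1B may be shared with the 6 pseudogenes GENCODE 29 names after it. Pseudogenes are also named after CCNB2, AURKA, NEK2, BUB1, BUB3, CDC20 and MKI67. Of the phosphatases that activate CDK1, CDC25C (chromosome 5, 137620959 to 137667516) was 15.4 (6.74 to 24.03) with control siRNA, 20.3 (9.20 to 31.4) with ESRP2 siRNA and 12.6 (5.66 to 19.5) with Arkadia siRNA, a direct log2 ratio of -0.65. CDC25B had the opposite order, at 27.2, 21.2 and 31.9. It was within 1.5-fold on the FPKM + 1 scale, though its plain FPKM ratio of Arkadia to ESRP2 siRNA was 1.51.

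The other mitotic kinases and their partners differed in opposite directions. Polo-like kinase 1, which matures centrosomes and triggers mitotic entry (PLK1, chromosome 16, 23690201 to 23724821, a locus shared with ERN2), read 141 (76.5 to 206) with control siRNA, 104 (56.4 to 151) with ESRP2 siRNA and 205 (112 to 298) with Arkadia siRNA. It was lowest with ESRP2 siRNA and highest with Arkadia siRNA, with a direct log2 ratio of 0.98. TPX2, the spindle factor that activates Aurora A (chromosome 20, 30326904 to 30389603), showed the reverse order at 86.2 (45.2 to 127) with control siRNA, 165 (88.9 to 241) with ESRP2 siRNA and 54.9 (28.5 to 81.2) with Arkadia siRNA. Its log2 ratios were 0.93 and -0.64 against control, and the ESRP2 and Arkadia siRNA intervals were apart. Aurora A, AURKA, was 80.9, 107 and 71.7, just inside 1.5-fold in the direct comparison with -0.58. The centrosomal kinase NEK2 was 33.01, 49.2 and 32.6. HMMR, a microtubule-binding partner of TPX2 (chromosome 5, 162887517 to 162918953), was 19.1 (8.72 to 29.5) with control siRNA, 33.4 (15.6 to 51.3) with ESRP2 siRNA and 11.4 (5.10 to 17.7) with Arkadia siRNA, again high with ESRP2 siRNA and low with Arkadia siRNA.

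The spindle checkpoint genes were led by MAD2L1, whose product MAD2 binds and blocks CDC20 (chromosome 4, 120980579 to 120988013). Its FPKM was 179 (92.3 to 265) with control siRNA, 276 (144 to 406) with ESRP2 siRNA and 97.1 (49.3 to 144) with Arkadia siRNA, and of these intervals those of the knockdown libraries were apart. BUB1B, which encodes the checkpoint protein BUBR1 (chromosome 15, 40453210 to 40569688, a locus shared with PAK6 and C15orf56), was 30.9 (15.6 to 46.2) with control siRNA, 42.3 (21.6 to 63.00) with ESRP2 siRNA and 24.5 (12.4 to 36.7) with Arkadia siRNA. The kinase TTK, also called MPS1 and the start of the checkpoint signal (chromosome 6, 80714322 to 80752244), was 23.7 (11.01 to 36.4) with control siRNA, 32.3 (15.2 to 49.5) with ESRP2 siRNA and 16.3 (7.41 to 25.3) with Arkadia siRNA. Both were past 1.5-fold only between the knockdown libraries. The kinase BUB1 was 51.2, 66.3 and 49.3 and BUB3 was 228, 194 and 241. BUB3 was the 1 checkpoint gene with its lowest value in the ESRP2 siRNA library.

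The 3 genes that control the start of anaphase, securin as an inhibitor, had their highest values with Arkadia siRNA. ESPL1 stood at -0.083 against control after the medians of all genes of like GC content were subtracted. CDC20, the activator of APC/C (chromosome 1, 43824626 to 43828873), read 115 (60.04 to 170.0) with control siRNA, 152 (79.5 to 224) with ESRP2 siRNA and 210.1 (111 to 309.6) with Arkadia siRNA. Its log2 ratio of 0.86 made it the 1 mitotic gene past 1.5-fold upward with Arkadia siRNA, and it was also above control with ESRP2 siRNA by 0.40. Securin, the inhibitor that APC/C destroys (PTTG1), was 100.4, 108 and 146, with log2 ratios of 0.11 and 0.54. PTTG1 closely resembles PTTG2, so its reads may be shared. Separase, the protease that cuts cohesin (ESPL1, chromosome 12, 53662083 to 53687427), was 23.1 (11.7 to 34.5) with control siRNA, 12.5 (6.31 to 18.6) with ESRP2 siRNA and 26.1 (13.5 to 38.7) with Arkadia siRNA. It was low with ESRP2 siRNA, at a log2 ratio of -0.84, and near control with Arkadia siRNA.

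All 6 kinetochore and centromere genes were above control with ESRP2 siRNA and below it with Arkadia siRNA. Of all genes, 57.9% were above control in the first library and 51.4% below it in the other. After the medians of all genes of like GC content were subtracted these directions did not hold: 4 of the 6 (CENPE, CENPF, NDC80 and SPC25) were below control with ESRP2 siRNA and 3 (CENPF, NDC80 and NUF2) above it with Arkadia siRNA. The group's median log2 ratio went from 0.41 to -0.10 and from -0.29 to 0.049. CENPE (chromosome 4, 104026963 to 104119566) was 8.24 (4.11 to 12.4) with control siRNA, 11.9 (6.02 to 17.7) with ESRP2 siRNA and 5.10 (2.46 to 7.73) with Arkadia siRNA. Of the NDC80 complex, which holds the microtubule end, NUF2 (chromosome 1, 163291723 to 163325553) was 35.6 (16.6 to 54.7) with control siRNA, 72.8 (34.8 to 111) with ESRP2 siRNA and 28.1 (12.9 to 43.4) with Arkadia siRNA. It had the largest log2 ratio of the 6 with ESRP2 siRNA, 1.01. NDC80 (chromosome 18, 2571510 to 2616634) was 15.5 (7.84 to 23.1) with control siRNA, 21.1 (10.5 to 31.6) with ESRP2 siRNA and 13.1 (6.61 to 19.5) with Arkadia siRNA. SPC25 (chromosome 2, 169727401 to 169746944), which joins the complex to the inner kinetochore, was 55.4 (27.2 to 83.4) with control siRNA, 73.4 (36.7 to 109.5) with ESRP2 siRNA and 35.7 (17.5 to 53.9) with Arkadia siRNA. CENPA, the histone H3 variant of centromeres, was 17.4, 21.9 and 16.8, and CENPF, a large kinetochore protein of G2 and mitosis, was 17.9, 20.3 and 15, both within 1.5-fold throughout.

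In the chromosomal passenger complex Aurora B corrects faulty attachments. Its kinase AURKB (chromosome 17, 8108049 to 8113883) was 169 (84.98 to 253) with control siRNA, 107 (53.4 to 161) with ESRP2 siRNA and 179.9 (90.96 to 268) with Arkadia siRNA, and its scaffold INCENP (chromosome 11, 61891445 to 61920635) was 35.97 (17.3 to 54.5) with control siRNA, 18.6 (8.70 to 28.5) with ESRP2 siRNA and 40.1 (19.5 to 60.7) with Arkadia siRNA. Both were lowest with ESRP2 siRNA, with log2 ratios of -0.65 and -0.91, and differed from control by 0.089 and 0.15 with Arkadia siRNA. The other subunits, survivin and borealin, stayed within 1.5-fold: BIRC5 was 100.4, 119 and 121 and CDCA8 was 36.4, 36.6 and 50.6. All 4 genes of the complex were above control with Arkadia siRNA, by 0.089 to 0.46, as were 48.6% of all genes. After GC medians were subtracted AURKB (-0.16) and INCENP (-0.19) were below control. The complex's median then was -0.24 with ESRP2 siRNA and 0.029 with Arkadia siRNA.

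In the spindle midzone and cytokinesis group, ECT2, the exchange factor that switches on RhoA at the cleavage furrow (chromosome 3, 172472298 to 172539263), stood out. It read 26.95 (13.7 to 40.2) with control siRNA, 44.4 (22.97 to 65.9) with ESRP2 siRNA and 14.03 (6.97 to 21.1) with Arkadia siRNA, and the knockdown libraries' intervals were apart with a direct log2 ratio of -1.60. Anillin, a scaffold of the contractile ring (ANLN, chromosome 7, 36363759 to 36493400, a locus shared with KIAA0895), was 28.5 (12.01 to 45.1) with control siRNA, 31.8 (13.9 to 49.8) with ESRP2 siRNA and 20.4 (8.70 to 32.1) with Arkadia siRNA. The spindle protein NUSAP1 (chromosome 15, 41624892 to 41673248) was 80.8 (40.4 to 122) with control siRNA, 110.1 (53.8 to 167) with ESRP2 siRNA and 65.6 (31.7 to 99.6) with Arkadia siRNA. The midzone bundler PRC1 was 104, 96.98 and 91.96 and hardly differed. Topoisomerase II alpha, which untangles sister chromatids (TOP2A, chromosome 17, 38544773 to 38574202), was 60.6 (31.98 to 89.1) with control siRNA, 103 (55.1 to 151) with ESRP2 siRNA and 45.8 (23.96 to 67.7) with Arkadia siRNA. MKI67, the gene of the proliferation marker Ki-67, was 19.5, 16.4 and 14.5, below control in both knockdown libraries and within 1.5-fold in all comparisons.

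The differences varied with the base composition of the transcript. GC content, taken from GENCODE 29 transcripts for the longest isoform, ran from 35.3% in CENPE to 59.6% in INCENP. Across the 37 genes the log2 ratio correlated with it with Spearman's rho of -0.71 for ESRP2 against control siRNA, 0.70 for Arkadia against control siRNA and 0.82 in the direct comparison. The same trend ran through the 11760 genes with a GC value, with rho of -0.64, 0.56 and 0.75. These are correlations across genes, which share their libraries and are not independent replicates.

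The mitotic genes were then set beside all genes of like GC content. In the lowest 3 GC deciles, 19 mitotic genes had a median log2 ratio of 0.56 with ESRP2 siRNA and 9 were past 1.5-fold upward, while all genes there had a median of 0.51 and 42.5% were past it. With Arkadia siRNA these medians were -0.33 and -0.34. The middle 4 deciles held 12 mitotic genes. The median of these 12 was 0.28 with ESRP2 siRNA, beside 0.12 for all genes there, and -0.15 with Arkadia siRNA, beside -0.0043. The highest 3 deciles held 6 mitotic genes, CDC25B, PLK1, CDC20, ESPL1, AURKB and INCENP. Their median was -0.55 with ESRP2 siRNA, beside -0.35 for all genes there, and 0.20 with Arkadia siRNA, beside 0.31. In the direct comparison the medians in the lowest, middle and highest deciles were -1.02, -0.26 and 0.86, beside -0.86, -0.13 and 0.65 for all genes. After the decile medians were subtracted, the medians over the 37 genes were 0.028, -0.083 and -0.0035 in the 3 comparisons, and 9, 11 and 12 of the 37 genes changed sign. The reads implied by the interval steps differed between the libraries too. As the scaling between libraries is not given, they may not show depth alone. The part of depth in the result was not tested, nor was that of base composition in the values of single genes.

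After this subtraction the shares of mitotic genes past 1.5-fold were near those of all genes or below them. With ESRP2 siRNA 10.8% were higher and 5.41% lower, against 9.20% and 7.70% of all genes. With Arkadia siRNA these were 5.41% and 2.70%, against 6.35% and 7.01%, and in the direct comparison 5.41% and 10.8%, against 12.4% and 14.1%. The genes past 1.5-fold both before and after it with ESRP2 siRNA were CDK1 (0.76), CCNA2 (0.62), TPX2 (0.62) and ESPL1 (-0.61). With Arkadia siRNA they were CKS2 (-0.81) and CDC20 (0.61). In the direct comparison CCNA2 (-0.73), CKS2 (-1.16), TPX2 (-1.10) and MAD2L1 (-0.64) were past it both times. BUB3, CDC20 and PTTG1 were past 1.5-fold in a comparison only after subtraction. For BUB3 the GC content is that of its longest isoform, which was not its main one.

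**Figure D4:**
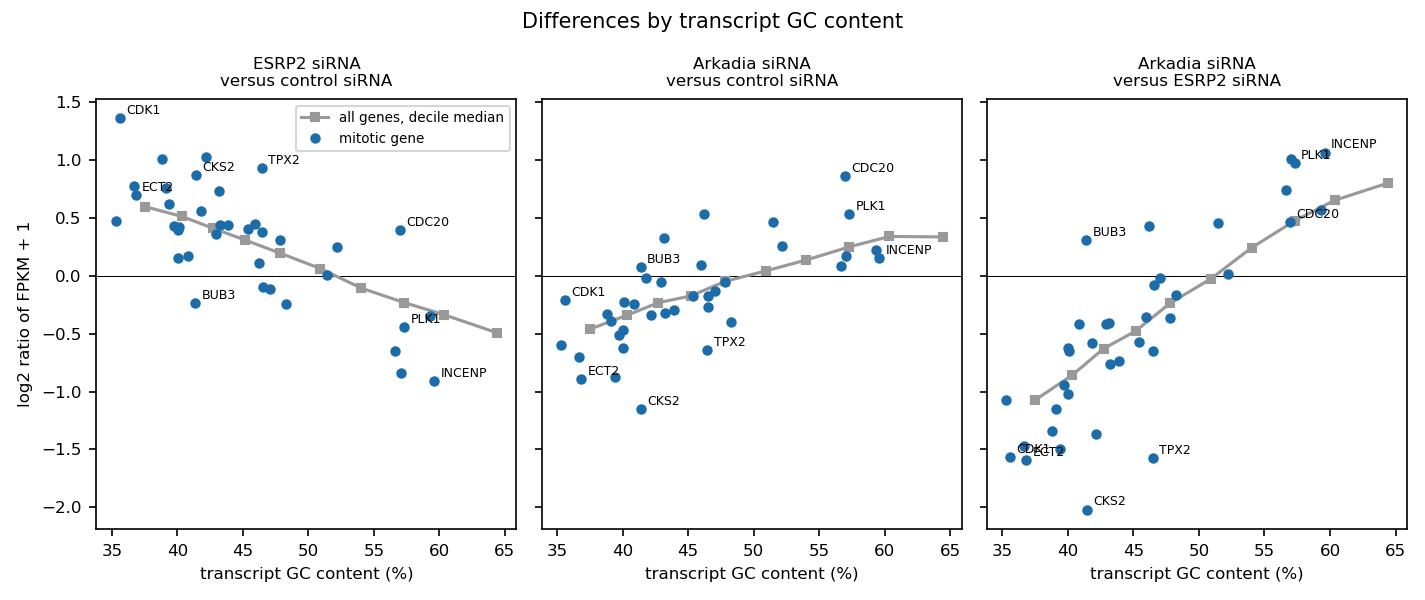
The log2 ratio of FPKM + 1 against transcript GC content for the 37 mitotic genes (blue points) and the median of all genes in each GC decile (grey squares), in the 3 comparisons. Most points follow the grey line, from CENPE at 35.3% to INCENP at 59.6%. BUB3, CKS2, TPX2, PTTG1, CDK1 and CDC20 are among those off it in at least 1 panel. In the direct panel BUB3 (1.17) and CKS2 (-1.16) lie furthest from their decile medians.

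Ratios of partners within a library do not depend on how the libraries were scaled to each other, but partners that differ in GC content can differ with it. CKS2, at 41.4% GC against 47.0%, exceeded CKS1B 2.23-fold with control siRNA, 4.40-fold with ESRP2 siRNA and 1.09-fold with Arkadia siRNA. TPX2 to AURKA, whose GC contents are close at 46.5% and 45.4%, was 1.06, 1.54 and 0.766. AURKA to AURKB was 0.479, 0.9998 and 0.398, where the GC contents are 45.4% and 56.6%. Within the kinetochore, NUF2 to NDC80 was 2.31, 3.46 and 2.15, and SPC25 to NDC80 was 3.58, 3.49 and 2.73, with all 3 genes between 38.8% and 40.1% GC. The ratio of CCNB1 to CCNB2, at 43.2% and 45.95% GC, was 1.56, 1.90 and 1.84. CDC20 to MAD2L1, the activator of APC/C to its inhibitor, was 0.643 and 0.551 with control and ESRP2 siRNA and 2.16 with Arkadia siRNA. Their GC contents, 56.96% and 39.4%, are the furthest apart of the pairs computed, and the part of GC content in this ratio was not tested.

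At the level of RefSeq isoforms, 21 of the 37 genes had 1 isoform in the table and 16 had more. For each of the 16, isoform shares of summed FPKM were compared between libraries. The usage change adds up what the gaining isoforms gained, so 0 is no change and 1 a full switch. It reached 0.25 for HMMR, CDC25C and MKI67 with ESRP2 siRNA (3 of 16, or 18.8%, against 20% of all genes compared), for HMMR and NUF2 with Arkadia siRNA (12.5%, against 17.1%) and for HMMR, CDC25C, NUF2 and BUB3 between the knockdown libraries (4 of 16, against 26.3%). These shares are Cufflinks estimates for isoforms that share exons, and only genes whose isoforms summed to an FPKM of 5 or more throughout were compared.

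HMMR had the largest usage change of the 16 genes with ESRP2 siRNA (0.45) and between the knockdown libraries (0.70), and NUF2 had the largest with Arkadia siRNA (0.38, beside 0.34 for HMMR). In HMMR the isoform of 2916 nt made up 24.9%, 70.4% and 0.00143% of the gene with control, ESRP2 and Arkadia siRNA, and the isoform of 3095 nt 43.3%, 23.7% and 73.9%. In FPKM the 2916 nt isoform stood at 4.77 (0.0618 to 10.2) in the control library and 23.5 (8.87 to 38.1) in the ESRP2 siRNA library. The Arkadia siRNA library had it at 0.000163, where the authors' interval was 0 to 0 and did not contain it. The 3095 nt isoform was nearly level at 8.28, 7.92 and 8.41, and the 2916 nt form was the 1 HMMR isoform above its control value with ESRP2 siRNA.

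In CDC25C the 1896 nt isoform made up 13.1%, 51.1% and 6.005% of the gene. In FPKM it was 2.02 (0 to 5.49), 10.3 (2.42 to 18.3) and 0.756 (0 to 2.72). The 2115 nt isoform was at 13.4 (5.57 to 21.2), 9.91 (2.67 to 17.3) and 11.8 (5.17 to 18.5). For each isoform the intervals overlapped in every comparison. NUF2 was mostly its 1843 nt isoform with control and ESRP2 siRNA, at 75.96%, 91.9% and 37.6%, and the share of the 1989 nt isoform was 24.04%, 8.07% and 62.4%. The 1843 nt isoform stood at an FPKM of 67.0 (30.7 to 103) in the ESRP2 siRNA library and 10.6 (1.53 to 19.7) in the Arkadia siRNA library, with intervals apart. BUB3 was mainly its short isoform of 1537 nt, with shares of 82.4%, 64.9% and 90.9%, and the 2764 nt form had its largest share with ESRP2 siRNA, where the gene was lowest. For MKI67 the 11415 nt isoform had shares of 52.96%, 79.2% and 66.6%. CDK1 was at least 91.8% its 1913 nt isoform in every library. This isoform stood at 179 (89.5 to 268) with ESRP2 siRNA and 55.2 (24.5 to 86.0) with Arkadia siRNA. Those intervals were apart, while those of the whole gene overlapped. The share of all isoforms with intervals apart is not given here.

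**Figure D5:**
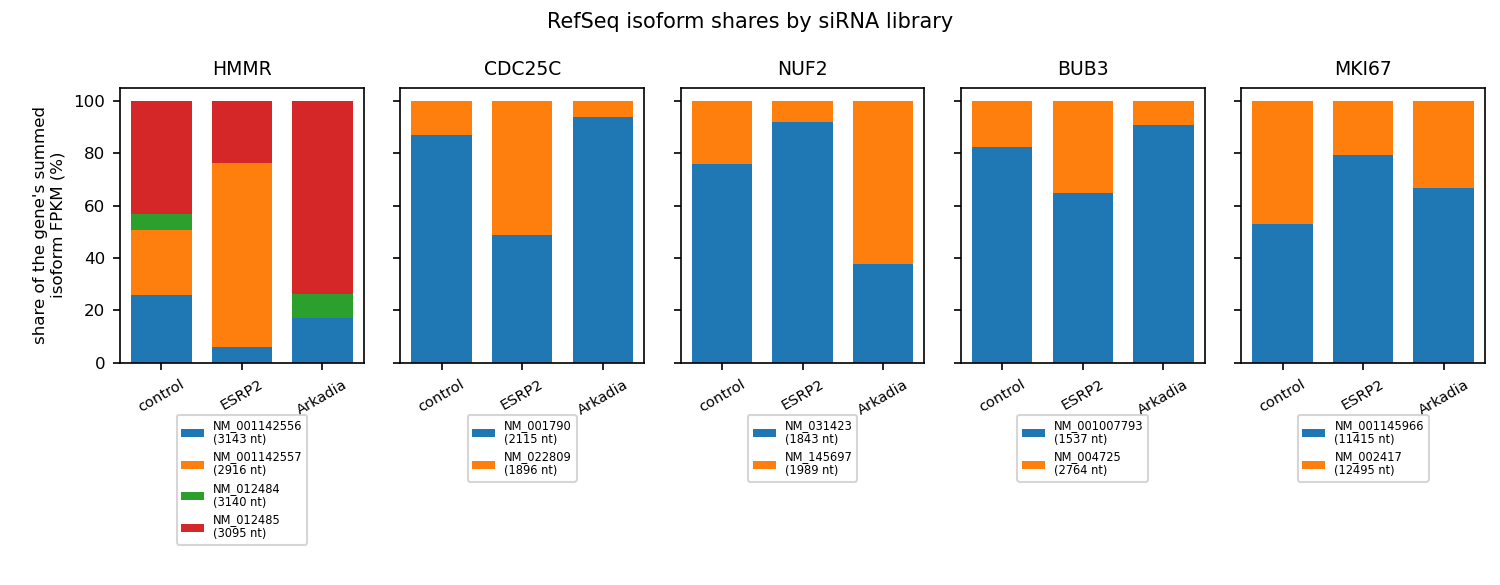
Share (%) of each RefSeq isoform in the gene's summed isoform FPKM, stacked to 100%, for the 5 mitotic genes with a usage change of at least 0.25 in any comparison, 1 bar per siRNA library. The 2916 nt isoform of HMMR goes from 24.9% with control siRNA to 70.4% with ESRP2 siRNA and 0.00143% with Arkadia siRNA.

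Other genes of cell division, in 7 lists of 134 genes of which 133 passed the filter, were counted in the same way. With ESRP2 siRNA 40 were at least 1.5-fold higher and 15 lower (30.1% and 11.3%, against 19.9% and 11.4% of all genes). With Arkadia siRNA 7 were higher and 23 lower (5.26% and 17.3%, against 9.81% and 11.8%). Between Arkadia and ESRP2 siRNA 16 were higher and 61 lower (12.03% and 45.9%, against 21.2% and 30.8%). After subtraction of the GC decile medians the counts with ESRP2 siRNA were 12 and 7 (9.02% and 5.26%, against 9.20% and 7.70% of all genes). CENPU, a listed kinetochore gene, was not analysed here. The median log2 ratios against control were 0.34 and -0.20, and 0.013 and -0.036 after subtraction of the GC decile medians.

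Of 29 other kinetochore and checkpoint proteins, 15 were higher and 1 lower with ESRP2 siRNA (51.7% and 3.45%, against 19.9% and 11.4% of all genes), with a median of 0.59, and 0.21 after GC subtraction. With Arkadia siRNA 3 were higher and 10 lower (10.3% and 34.5%, against 9.81% and 11.8%), with a median of -0.39, and -0.14 after GC subtraction. NSL1 and DSN1 belong to the MIS12 complex, the base onto which NDC80 docks. The FPKM of NSL1 with control, ESRP2 and Arkadia siRNA was 3.47 (1.61 to 5.33), 11.7 (5.69 to 17.7) and 5.99 (2.85 to 9.15), and the first 2 intervals were apart. For DSN1 it was 40.04 (18.3 to 61.9), 69.8 (33.4 to 106) and 16.9 (7.39 to 26.6), with the knockdown libraries' intervals apart. SKA2, of the complex that tracks microtubule ends, was 12.1 (5.87 to 18.4), 25.9 (12.96 to 38.8) and 7.67 (3.78 to 11.6). SGOL2, a shugoshin that protects cohesin, was 8.29 (3.70 to 12.9), 17.3 (7.85 to 26.7) and 3.87 (1.67 to 6.07). Both had intervals apart between the knockdown libraries.

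All 18 condensin and cohesin genes were above control with ESRP2 siRNA, where 57.9% of all genes were, and 9 of them were after GC subtraction. At 1.5-fold 6 were higher and 0 lower (33.3%, against 19.9% of all genes higher), with a median of 0.41 that became -0.0060 after GC subtraction. Of the condensins, which compact mitotic chromosomes, SMC4 was 48.7 (24.99 to 72.5), 112 (60.4 to 164) and 39.7 (20.3 to 59.2) and NCAPG was 24.1 (11.6 to 36.7), 53.3 (26.8 to 79.8) and 16.1 (7.65 to 24.5). The cohesin loader NIPBL was 5.82 (2.66 to 8.99), 8.52 (4.01 to 13.05) and 2.49 (1.14 to 3.84), and the releasing factor WAPAL was 15.3 (7.79 to 22.9), 28.9 (14.9 to 42.96) and 13.5 (6.83 to 20.2). With Arkadia siRNA 0 were higher and NIPBL alone was lower (5.56%, against 11.8% of all genes).

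Genes that brake mitotic entry or run the PP2A switch had 3 of 11 higher and 1 lower with ESRP2 siRNA (27.3% and 9.09%, against 19.9% and 11.4% of all genes), and 0 and 4 with Arkadia siRNA (36.4% lower, against 11.8%). After GC subtraction 0 were higher and 1 lower with ESRP2 siRNA (0% and 9.09%, against 9.20% and 7.70% of all genes). The median there went from 0.43 to -0.11. With Arkadia siRNA 0 were then higher and 2 lower (0% and 18.2%, against 6.35% and 7.01%). PKMYT1, a kinase that inhibits CDK1, was 20.2 (5.32 to 35.1), 8.28 (1.62 to 14.9) and 18.3 (5.27 to 31.4). PPP2R2A, the PP2A subunit that opposes CDK1, was 33.97 (16.02 to 51.9), 48.05 (23.6 to 72.7) and 17.2 (8.03 to 26.4), and its inhibitor ARPP19 was 11.6 (5.77 to 17.5), 25.4 (12.9 to 37.9) and 10.7 (5.25 to 16.1). FBXO5, the inhibitor of APC/C also called EMI1, was 26.3 (12.00 to 40.7), 46.3 (22.3 to 70.3) and 20.3 (9.27 to 31.3).

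APC/C subunits and partners had 3 higher and 3 lower of 16 with ESRP2 siRNA, and 3 and 1 with Arkadia siRNA. The shares were 18.8% each way, near the 19.9% of all genes higher and above the 11.4% lower, and 18.8% and 6.25% against 9.81% and 11.8%. After GC subtraction 1 was higher and 1 lower with ESRP2 siRNA (6.25% each way, against 9.20% and 7.70% of all genes). With Arkadia siRNA 2 were then higher and 0 lower (12.5% and 0%, against 6.35% and 7.01%). The small subunits ANAPC13 and ANAPC11 were 30.2 (13.5 to 46.9), 83.7 (39.3 to 128) and 28.99 (12.9 to 44.98) and 39.2 (16.9 to 61.4), 41.7 (18.1 to 65.3) and 92.9 (41.3 to 145), each high in a different library. UBE2S, the E2 that extends ubiquitin chains, was 298 (151 to 444), 149 (73.8 to 223) and 345 (176 to 512), and CDC27 was 25.5 (12.4 to 38.7), 34.5 (17.02 to 52.02) and 14.6 (6.85 to 22.4).

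G1 cyclins, CDKs and CDK inhibitors had 3 higher and 5 lower of 17 with ESRP2 siRNA, and 0 and 1 with Arkadia siRNA. The shares were 17.6% and 29.4%, against 19.9% and 11.4% of all genes, and 0% and 5.88%, against 9.81% and 11.8%. After GC subtraction 4 were higher and 4 lower with ESRP2 siRNA (23.5% each way, against 9.20% and 7.70% of all genes). With Arkadia siRNA 0 were then higher and 3 lower (0% and 17.6%, against 6.35% and 7.01%). The cyclin E genes differed from each other: CCNE1 was 30.2 (15.2 to 45.2), 15.1 (7.54 to 22.6) and 19.5 (9.78 to 29.1) and CCNE2 was 3.86 (0 to 10.3), 11.5 (0.565 to 24.3) and 3.82 (0 to 9.30). CDK4, the kinase of cyclin D, was 317 (158 to 476), 158 (74.6 to 242) and 225 (110.3 to 340.4), and the inhibitor p27, CDKN1B, was 20.7 (10.3 to 31.05), 55.97 (28.8 to 83.1) and 25.1 (12.5 to 37.6).

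Regulators of mitotic gene transcription had 4 higher and 3 lower of 20 with ESRP2 siRNA, and 1 and 2 with Arkadia siRNA. The first counts are near the shares over all genes, 19.9% and 11.4%, and the others are below 9.81% and 11.8%. After GC subtraction 0 were higher and 0 lower with ESRP2 siRNA, against 9.20% and 7.70% of all genes. With Arkadia siRNA 1 was then higher and 4 lower (5% and 20%, against 6.35% and 7.01%). Of the MuvB core, which reads the CHR, LIN9 was 16.8 (8.29 to 25.2), 31.6 (16.2 to 47.1) and 11.1 (5.55 to 16.7), LIN54 was 3.46 (1.53 to 5.40), 7.63 (3.55 to 11.7) and 3.05 (1.36 to 4.75) and RBBP4 was 72.1 (35.04 to 109), 109 (55.1 to 164) and 33.7 (15.7 to 51.7). The other core members listed, named after their values were seen, stayed within 1.5-fold of control, LIN37 with the opposite order: LIN37 was 16.1 (7.59 to 24.7), 10.8 (4.89 to 16.6) and 17.3 (8.10 to 26.5) and LIN52 was 15.5 (7.70 to 23.3), 16.6 (8.26 to 24.8) and 10.99 (5.32 to 16.7). E2F1 was 51.2 (26.2 to 75.9), 26.02 (13.1 to 38.9) and 39.9 (20.4 to 59.4). FOXM1 and the MYB gene MYBL2, also named after their values were seen, were lowest with ESRP2 siRNA. FOXM1 was 70.4 (34.1 to 107), 47.9 (22.9 to 73.0) and 87.6 (43.4 to 132). MYBL2 was 202 (109 to 295), 114 (60.6 to 168) and 198 (107 to 289). Their log2 ratios with ESRP2 siRNA were -0.55 and -0.82, and -0.44 and -0.48 after GC subtraction. Centrosome and spindle genes had 6 higher and 2 lower of 22 with ESRP2 siRNA (27.3% and 9.09%, against 19.9% and 11.4% of all genes), and 0 and 4 with Arkadia siRNA (18.2% lower, against 11.8%). After GC subtraction 0 were higher and 1 lower with ESRP2 siRNA (0% and 4.55%, against 9.20% and 7.70% of all genes). The median there went from 0.33 to -0.029. With Arkadia siRNA 1 was then higher and 2 lower (4.55% and 9.09%, against 6.35% and 7.01%). The centriole kinase PLK4 was 10.99 (4.94 to 17.04), 19.4 (9.22 to 29.5) and 9.55 (4.30 to 14.8), with its partners SASS6 at 9.92 (4.91 to 14.9), 17.6 (8.78 to 26.4) and 7.78 (3.88 to 11.7) and STIL at 11.2 (5.03 to 17.3), 14.1 (6.71 to 21.6) and 5.90 (2.66 to 9.16). STMN1, which destabilizes microtubules, was 344 (172 to 517), 456 (249 to 663) and 204 (107 to 301).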

How the data were processed

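Polyadenylated RNA was sequenced on the Ion PI platform for 3 HEK293T libraries, 1 per siRNA, per the labels' protocols. The authors' deposited FPKM values and confidence bounds, for 23284 genes and 41138 RefSeq isoforms, come from Cufflinks 2.1.1 and Cuffdiff after alignment to hg19 with TopHat2 2.0.10 and Bowtie2 2.1.0, per the submitters' processing notes. No source used here gives the scaling between libraries, the dispersion model or the use of strand.

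From these FPKM values log2 ratios were computed with a pseudocount of 1 (Python 3.11.15, pandas 2.3.3). The filter kept genes of status OK whose mean FPKM was 1 or more and whose longest isoform was 300 nt or more. Approximate reads came from steps between the interval bounds of low single-isoform genes: 2455 of 3994 had bounds in whole steps (tolerance 0.01), and 1183 shared 1 step. Loci are counted from 1 on hg19, and promoter windows are RefSeq's on GRCh38.p14. GC content came from GENCODE 29 transcripts, 94.6% of genes matching on accession and 2.69% on symbol. Counting was tested on simulated data.

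The 37 genes and all lists were chosen with earlier results of these data known. Genes past 1.5-fold in any comparison, 23 of 37, are given with intervals, and of each pathway list up to 4 with the largest log2 ratio against control. Protein sequences were not used here. Alternatives covered pseudocount, filter, scaling, GC, length, isoform sums and thresholds.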

Additional observations from a re-analysis of the deposited data

How the results depend on the processing

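No paired analysis was possible because each group has 1 library, and leaving out a library removes its group. A pseudocount of 0.1, no filter on mean FPKM and isoform sums kept each count of mitotic genes within 1.5 times and each median within 0.1. Subtraction of GC decile medians moved most: the medians became 0.028 (ESRP2 against control), -0.083 (Arkadia against control) and -0.0035 (Arkadia against ESRP2), the genes higher 4, 2 and 2, and the genes lower 1 with Arkadia siRNA and 4 in the direct comparison. Of 111 single values 33 shifted there by more than 1 standard error taken from the authors' intervals without being counted as reversed. A further 2, which also shifted by more than that, were past 1.5-fold and reversed. These were ANLN and NDC80, which went to 0.24 and 0.21 in the direct comparison after GC subtraction. None shifted so under the other scalings, filters and sums. Within 1.5-fold 9, 11 and 10 values changed sign after GC subtraction in the 3 comparisons. For the pathway lists GC subtraction gave 12 higher and 7 lower with ESRP2 siRNA (9.02% and 5.26%, against 9.20% and 7.70% of all genes after the same step). With Arkadia siRNA 5 were higher and 15 lower (3.76% and 11.3%, against 6.35% and 7.01%). Directly 9 were higher and 20 lower (6.77% and 15.04%, against 12.4% and 14.1%).

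Length subtraction, median-of-ratios and upper-quartile scaling gave medians of 0.29, 0.27 and 0.23 with ESRP2 siRNA and of -0.43, -0.42 and -0.41 directly. Upper-quartile scaling left 6 genes higher with ESRP2 siRNA, where 12.7% of all genes were. Both scalings gave 8 higher directly, where 26.1% and 26.2% of all genes were. Pathway genes higher with ESRP2 siRNA under length subtraction and the 2 scalings were 26, 24 and 23, where 14.5%, 14.4% and 12.7% of all genes were. With median-of-ratios scaling 15 pathway genes were lower with Arkadia siRNA, where 10.5% of all genes were. With ESRP2 siRNA the 2 scalings moved the median of all genes from 0.12 to 0.0083 and -0.033, and the split of all genes from 2361 higher and 1354 lower to 1711 and 1826, and to 1512 and 2037. In the direct comparison that split moved from 2521 and 3656 to 3098 and 2986, and to 3114 and 2946. At 2-fold, 3 genes were higher and 0 lower with ESRP2 siRNA, 0 and 1 with Arkadia siRNA, and 2 and 11 directly. The shares of all genes at 2-fold are not given here, so these counts cannot be set against them. Requiring intervals apart left 0 and 0, 0 and 0, and 0 and 4. Isoform usage at a summed FPKM of at least 20 left 0, 1 and 2 genes. How many mitotic genes reached that level, and the share over all genes there, are not given here. The cause of these shifts was not tested.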
